A study of Mus musculus with 8 samples.

Results

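The p53 pathway and its target genes were described in the livers of *Usp39*-HKO mice and control littermates. The members are 37 genes, taken from the deposited table by their gene symbols, out of 55385 gene identifiers in all, and each of the 37 symbols was found. They were grouped by role as p53 itself with the genes that feed back on it (7 genes), cell cycle arrest (6), apoptosis (12), DNA repair (5) and metabolism (7). Usp39 is a component of the spliceosome, the machine that removes introns from RNA. The study sequenced these livers to ask, among other things, whether loss of Usp39 changes the splicing of genes for the autophagy of lipids. It also combined liver RNA and lipid measurements to look for changed pathways. The *Usp39*-HKO mice carry *Usp39* alleles with *loxP* sites around exon 2 and a Cre recombinase driven by the albumin promoter (*Alb-Cre*), on a C57BL/6J background. The controls are labelled WT and are described as littermates in the study. Because Cre acts in albumin-expressing cells, the other cell types of a *Usp39*-HKO liver keep the gene. All mice were males, 5 weeks old and fasted for 16 h, with 4 mice in each group and 1 RNA library for each liver.

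The transcription factor p53 is kept at a low level by the ubiquitin ligase Mdm2, which marks it for degradation, and it is stabilised when DNA, ribosome production or transcription is disturbed. Stabilised p53 binds response elements in its target genes, among them *Mdm2* itself, so that the pathway limits its own activity. Other targets stop the cell cycle, promote cell death, repair DNA or change metabolism, and in the liver the pathway is known to restrain hepatocyte division. Since p53 is controlled largely at the protein level, RNA measures its targets and not its activity.

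The consensus of a p53 response element is a pair of 10-base motifs, or decamers, with a spacer of 0 to 13 bases between them. Only exact matches to the consensus decamer were searched for, so that elements with a mismatch were missed. A complete element means here a pair of exact matches. Promoter windows from RefSeq (GRCm38.p6), which span each annotated start, were available for 29 of the 37 members, as 39 windows. The names without a window are *Zmat3*, *Pmaip1*, *Perp*, *Tnfrsf10b*, *Trp53inp1*, *Rrm2b*, *Xpc* and *Ddb2*. The decamer reads the same on both strands, so that a match on 1 strand is also a match on the other. At least 1 decamer was found in 12 of the 39 member windows (30.8%), belonging to 11 members, against 8.36% of all 32851 windows. A complete element was found in 1 member window, that of an upstream start of *Cdkn1a*, and in 0.0731% of all windows (24 in all). A match describes the letters only and was not tested for binding. The stretches printed here are the only complete element and the decamers upstream of the starts of *Trp53*, *Mdm2*, *Ccng1* and *Bax*, with the decamers in capitals.
*Cdkn1a*, chr17:29090868-29090975, plus strand: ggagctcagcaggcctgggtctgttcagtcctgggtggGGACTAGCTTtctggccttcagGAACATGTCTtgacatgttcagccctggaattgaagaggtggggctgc
*Trp53*, chr11:69580256-69580321, plus strand: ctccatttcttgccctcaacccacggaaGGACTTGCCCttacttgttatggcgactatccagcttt
*Mdm2*, chr10:117710890-117710989, minus strand: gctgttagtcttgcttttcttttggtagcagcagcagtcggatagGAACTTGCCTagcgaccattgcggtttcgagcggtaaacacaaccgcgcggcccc
*Ccng1*, chr11:40755417-40755516, minus strand: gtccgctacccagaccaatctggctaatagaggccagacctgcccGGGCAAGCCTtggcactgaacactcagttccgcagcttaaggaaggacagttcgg
*Bax*, chr7:45467045-45467144, minus strand: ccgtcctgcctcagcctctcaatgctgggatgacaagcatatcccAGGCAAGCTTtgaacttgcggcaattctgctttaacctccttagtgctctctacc

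In *Cdkn1a* the pair of decamers lies between 73 and 42 bases before the upstream start, with 12 bases between them. The bases that directly follow this pair, tgacatgttc, differ from the consensus decamer only in their first base and were not marked. The decamers of the other stretches begin 75 (*Trp53*), 186 (*Mdm2*), 185 (*Ccng1*) and 201 bases (*Bax*) before their starts. The flanks of the 5 stretches were shortened where needed, so that none touches an exon in the GENCODE annotation of GRCm38. The stretch of *Bax* lies in an intron of Gm45808, a gene model on the same strand that also shares exon sequence with *Bax*. The windows of *Aen*, *Ei24*, *Rps27l*, *Sesn1*, *Ppm1d* and *Polk* also held a decamer. In the windows of *Phlda3*, *Psrc1*, *Btg2*, *Plk2*, *Eda2r* and *Gdf15*, which are among the genes that rose, no exact match was found.

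Counts on genes summed to between 8589636 and 10418450 per liver, and 3 counts, the upper limit that a count of 0 allows, were between 0.288 and 0.349 CPM. Levels are given as FPKM, the counts divided by gene length and by the total count of the mouse, always for control mice 1 to 4 and then *Usp39*-HKO mice 1 to 4, where the numbers only name the mice. Log2 fold changes are those of *Usp39*-HKO over control livers, from edgeR's quasi-likelihood test on the counts of 14340 genes, with p-values adjusted over all of them (Benjamini-Hochberg), and a gene was called at an adjusted p under 0.05. They are relative to the median gene. In log2(FPKM + 1), that gene lay 0.17 higher in *Usp39*-HKO mice, and in edgeR with library totals in place of TMM factors it lay 0.23 higher. FPKM values contain such a shift and the fold changes do not. In bulk liver RNA, a change in the number of cells of a type and a change in RNA per cell cannot be told apart.

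*Usp39* stood at 9.36, 10.4, 8.76 and 9.78 FPKM in control livers and at 8.38, 8.63, 8.70 and 8.07 in *Usp39*-HKO livers. The highest *Usp39*-HKO liver lay just under the lowest control. The log2 fold change was −0.41 (SE 0.11, adjusted p = 0.0212 in edgeR), but −0.18 with an adjusted p of 0.241 with library totals in place of TMM factors, and the adjusted p was 0.0547 without control mouse 4 and 0.0615 without *Usp39*-HKO mouse 4. Counts were summed over the whole gene, so that transcripts lacking exon 2 were still counted. Control mouse 4 stood apart from the other livers in genes of the exocrine pancreas. The 6 pancreas markers summed to 482 FPKM in that mouse, led by the chymotrypsinogen gene *Ctrb1* at 254 FPKM, and to between 2.45 and 4.72 FPKM in the other 7 livers. Without control mouse 4, 15 of the 37 members were called, all higher, against 17 with it. Over all 14340 genes, the calls went from 1561 higher and 1664 lower with that mouse to 1020 and 1023 without it. Leaving out another control gave 1124 and 1135 (mouse 1), 1593 and 1666 (mouse 2) and 982 and 949 (mouse 3). Leaving out a *Usp39*-HKO mouse gave 1847 and 1663, 1469 and 1597, 1278 and 1204, and 1031 and 1063 (mice 1 to 4). Thus a drop of this size was not particular to control mouse 4. Without control mouse 1 or *Usp39*-HKO mouse 2 or 3, 15 members were also called.

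Across the pathway, 17 of the 37 members rose in *Usp39*-HKO livers and none fell at an adjusted p under 0.05. Over all genes tested, 10.9% were called higher and 11.6% lower. Of the members, 36 passed the filter on low values (0.5 FPKM or more in 4 mice or more), and *Zfp365*, with 0 to 3 counts per liver, did not. *Psrc1*, *Tnfrsf10b* and *Eda2r* passed it only through the *Usp39*-HKO mice and therefore had to differ, and without them 14 of 34 members were called higher. The 0 members called lower in edgeR compare with 3 lower at an unadjusted p under 0.05 (*Plk3*, *Sesn3* and *Xpc*), with 0 in DESeq2 and 0 in limma, and with 2 (*Plk3* and *Sesn3*) in edgeR without the filter on low values. Without control mouse 2, *Sesn3* was called lower (adjusted p = 0.0371), and without *Usp39*-HKO mouse 1, *Dcxr* was (adjusted p = 0.0139). In FPKM, the groups did not overlap for 19 of the 36 members tested, each higher in *Usp39*-HKO livers, where 23.9% of all genes tested lay higher and 4.81% lower without overlap. The 19 include *Psrc1*, *Tnfrsf10b* and *Eda2r*. With library totals in place of TMM factors 21 members were called, all higher, where 24.5% of all genes tested were called higher and 4.9% lower. Limma on log2(FPKM + 1) called 18 members higher, where it called 21% of all genes higher and 4.32% lower. The median log2 fold change of the 36 members was 0.45, and 0.32 without the 3 that had to differ, against −0.0015 over all genes tested. It was 0.24 without *Usp39*-HKO mouse 3.

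**Figure D1:**
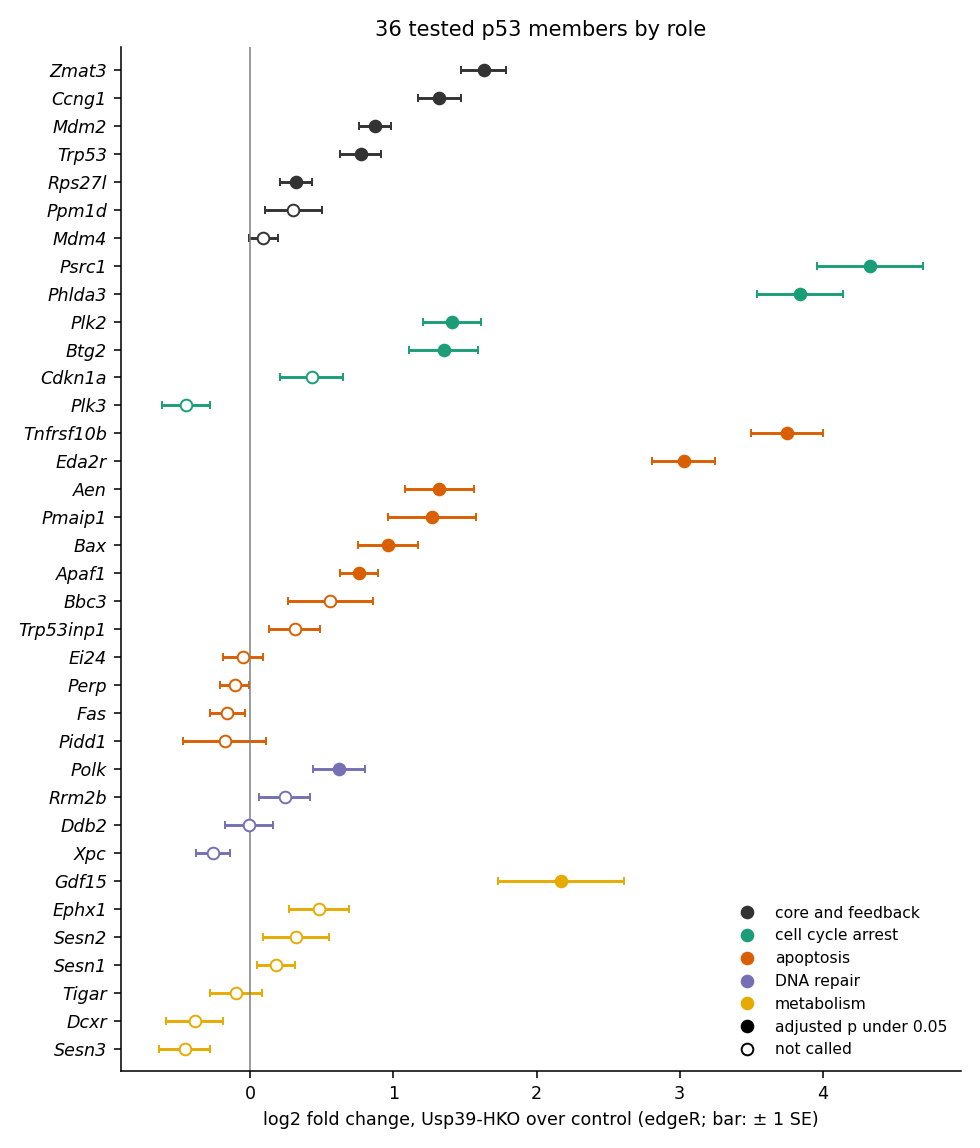
Log2 fold change between genotypes, positive where *Usp39*-HKO livers are higher (x axis), for each of the 36 tested members (y axis), in blocks of colour by role. Points are edgeR estimates from 4 mice against 4, bars are ± 1 SE and filled points have an adjusted p under 0.05. The 17 filled points all lie above 0, led by *Psrc1* at 4.33, and *Plk3* and *Sesn3* lie lowest at −0.45 and −0.46.

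Of the 7 genes of the p53 core and its feedback, 5 rose, where 10.9% of all genes tested did. *Trp53*, which encodes p53, lies on the plus strand of chromosome 11 of GRCm38 from 69580359 to 69591873 (ENSMUSG00000059552). Its FPKM was 6.09, 5.91, 6.13 and 6.10 in control livers and 8.47, 12.6, 14.6 and 13.2 in *Usp39*-HKO livers. The controls lay close together, while *Usp39*-HKO mouse 1 was lower than the other 3 of its group but above every control. The log2 fold change was 0.77 (SE 0.14, adjusted p = 0.00348). The pseudogene *Trp53-ps*, which shares 10.7% of a *Trp53* transcript, had only 4 to 21 counts per liver, against 213 to 563 for *Trp53*.

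*Mdm2*, on the minus strand of chromosome 10 from 117688875 to 117710758, encodes the ligase that marks p53 for degradation. It measured 11.3, 11.1, 11.6 and 10.5 FPKM in controls and 23.3, 21.3, 27.2 and 23.4 FPKM in *Usp39*-HKO livers. The groups were far apart, and the log2 fold change was 0.87 (SE 0.11, adjusted p = 0.000759). *Mdm4*, whose protein binds p53 and blocks its activity without degrading it, measured 5.89, 5.28, 5.85 and 5.06 FPKM in controls and 5.99, 7.09, 6.31 and 8.42 FPKM in *Usp39*-HKO livers. Its FPKM did not overlap, but relative to the median gene its log2 fold change was 0.09 (SE 0.10, adjusted p = 0.572). It was 0.33 with library totals (adjusted p = 0.0576) and 0.28 in limma (adjusted p = 0.0984), and was not called in either. Within each liver, a comparison chosen after the values were seen and not tested, *Mdm2* had 1.91 to 2.11 times the FPKM of *Mdm4* in controls and 2.77 to 4.31 times in *Usp39*-HKO mice. This ratio within a liver does not depend on the scaling between libraries.

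*Ccng1* encodes cyclin G1, which helps to restore Mdm2 activity after a p53 response. Its level was 12.2, 11.4, 15.7 and 15.5 FPKM in controls against 34.5, 34.0, 50.9 and 41.0 FPKM in *Usp39*-HKO mice. The lowest *Usp39*-HKO liver stood well above the highest control, and the log2 fold change was 1.32 (SE 0.15, adjusted p = 0.000597). *Zmat3*, a zinc finger RNA-binding protein gene, was at 1.25, 1.13, 1.04 and 1.23 FPKM in controls and at 4.17, 3.43, 5.34 and 3.98 FPKM in *Usp39*-HKO livers. Its log2 fold change of 1.63 (SE 0.16, adjusted p = 0.000232) was the largest of this group.

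*Rps27l*, a paralog of a ribosomal protein gene, was the most abundant of the called members. It was measured at 123, 120, 133 and 144 FPKM in control livers and at 172, 184, 217 and 192 FPKM in *Usp39*-HKO livers. Its log2 fold change of 0.32 (SE 0.11, adjusted p = 0.0475) was the smallest among the called members and lay next to the threshold. The call was lost with an adjusted p of 0.12, 0.0936, 0.0974 and 0.0641 without control mouse 1, 2, 3 and 4, and of 0.0604, 0.131 and 0.0541 without *Usp39*-HKO mouse 2, 3 and 4. It was also lost without the filter on low values (adjusted p = 0.134) and at the study's cutoff, which asks for an absolute log2 fold change over 0.5. *Ppm1d*, which encodes the phosphatase that removes activating phosphates from p53, was at 2.06 to 3.40 FPKM in controls and 2.97 to 4.62 FPKM in *Usp39*-HKO livers and was not called (log2 fold change 0.30, adjusted p = 0.307).

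**Figure D2:**
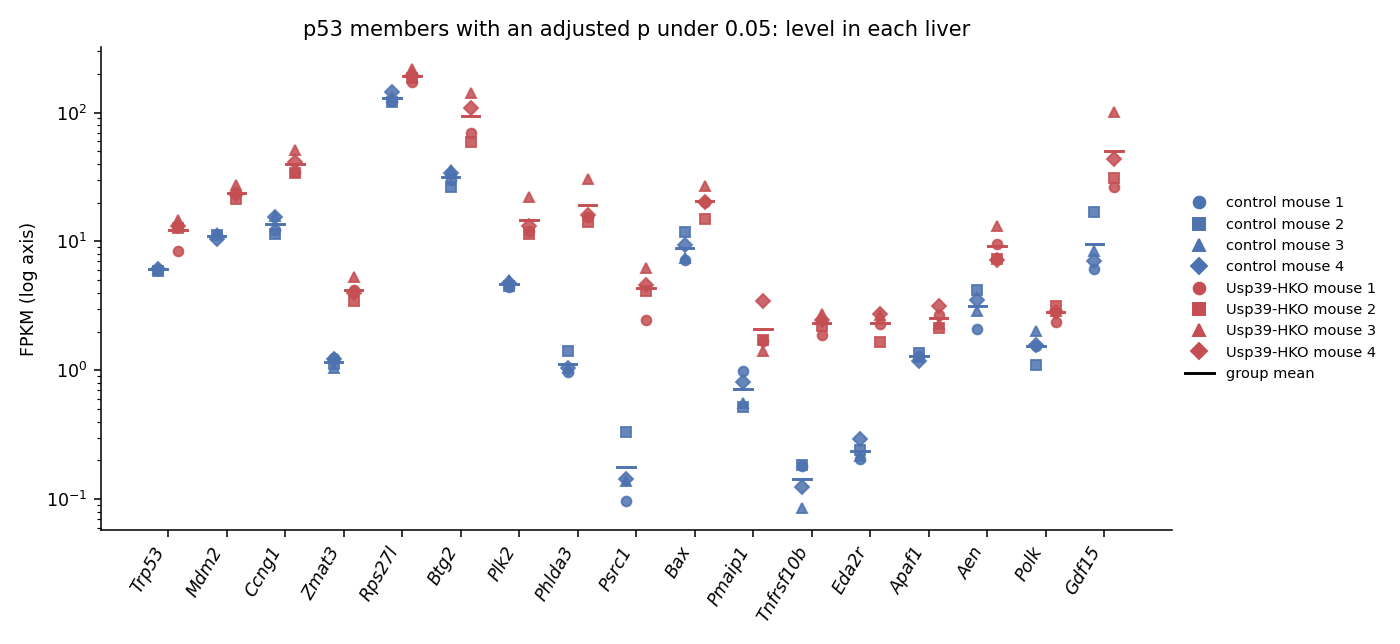
FPKM on a log axis (y axis) of the 17 called members (x axis) in each of the 4 control (blue) and 4 *Usp39*-HKO livers (red), with marker shapes for mouse numbers and lines at group means. *Phlda3* lies between 0.978 and 1.42 FPKM in controls and between 14.1 and 30.6 FPKM in *Usp39*-HKO livers, and the red triangles of *Usp39*-HKO mouse 3 are the highest for 13 of the 17 genes.

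Of the 6 genes grouped under cell cycle arrest, 4 rose, and 3 of 5 without *Psrc1*, which passed the filter only through the *Usp39*-HKO mice, where 10.9% of all genes tested rose. The group name is a label, and arrest itself was not tested. *Phlda3*, whose protein binds membrane lipids and holds back the kinase Akt, changed most among the members that were measured above the filter in controls. In controls it was at 0.978, 1.42, 1.05 and 1.05 FPKM, and in *Usp39*-HKO livers at 15.4, 14.1, 30.6 and 16.0 FPKM, from 14 to 22 counts and 224 to 455 counts per liver. A wide gap separated the groups, with *Usp39*-HKO mouse 3 far above its group (log2 fold change 3.84, SE 0.30, adjusted p = 7.23e-05). *Psrc1*, which encodes a protein of the mitotic spindle, was at 0.0971, 0.33, 0.138 and 0.143 FPKM in controls (3 to 11 counts) and at 2.45, 4.11, 6.17 and 4.58 FPKM in *Usp39*-HKO livers (80 to 198 counts). Its log2 fold change was 4.33 (SE 0.37, adjusted p = 0.000165).

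*Btg2*, an antiproliferative gene that answers quickly to many signals, had 30.2, 26.5, 35.6 and 33.8 FPKM in controls and 68.9, 58.8, 143 and 108 FPKM in *Usp39*-HKO livers. All *Usp39*-HKO values were above the controls but they were spread widely (log2 fold change 1.35, SE 0.24, adjusted p = 0.00323). The polo-like kinase gene *Plk2* had 4.46, 4.54, 5.00 and 4.72 FPKM in controls and 11.9, 11.4, 22.0 and 13.2 FPKM in *Usp39*-HKO livers, with mouse 3 again the highest (log2 fold change 1.41, SE 0.20, adjusted p = 0.00122). Its relative *Plk3* was far more abundant, at 63.3, 69.6, 48.3 and 46.2 FPKM in controls and 34.3, 53.5, 58.2 and 50.4 FPKM in *Usp39*-HKO livers. The *Plk3* values overlapped, and the log2 fold change of −0.45 (SE 0.17, adjusted p = 0.0837) did not pass the test. It was −0.21 with library totals and in limma, and the adjusted p was 0.032 without the filter on low values.

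*Cdkn1a*, which encodes the cyclin-dependent kinase inhibitor p21 and whose upstream promoter holds the complete element shown above, was not called. It is given with its values because it is the best known p53 target, a choice made after they were seen. It was at 29.3, 41.6, 32.7 and 47.4 FPKM in controls and at 63.2, 46.4, 81.0 and 45.6 FPKM in *Usp39*-HKO livers. *Usp39*-HKO mice 1 and 3 lay above every control, while mice 2 and 4 lay within the control range. The log2 fold change was 0.43 (SE 0.22, adjusted p = 0.183), and 0.23 without *Usp39*-HKO mouse 3. With library totals in place of TMM factors it was 0.65 (adjusted p = 0.032). The exons of *Cdkn1a* overlap a gene model on the opposite strand, AC167363.2, over 7.68% of their bases, and that model had 12 to 48 counts per liver against 955 to 2745 for *Cdkn1a*. Whether strand was used in counting is not given in the sources used here.

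Of the 12 apoptosis genes, 6 rose, and 4 of 10 without *Tnfrsf10b* and *Eda2r*, which passed the filter only through the *Usp39*-HKO mice, where 10.9% of all genes tested rose. *Tnfrsf10b*, the mouse receptor for the death ligand TRAIL, was at 0.18, 0.185, 0.0854 and 0.123 FPKM in controls (4 to 10 counts) and at 1.89, 2.195, 2.75 and 2.44 FPKM in *Usp39*-HKO livers (100 to 143 counts). The groups lay far apart, with a log2 fold change of 3.75 (SE 0.25, adjusted p = 2.92e-05). *Eda2r*, a receptor of the same family for a form of ectodysplasin, was at 0.203, 0.24, 0.217 and 0.293 FPKM in controls and at 2.27, 1.65, 2.69 and 2.72 FPKM in *Usp39*-HKO livers (log2 fold change 3.03, SE 0.22, adjusted p = 7.03e-05). The pseudogene Gm15574, which shares 33.3% of a *Tnfrsf10b* transcript, had 0 counts in each liver. *Fas*, the receptor for Fas ligand, was at 11.8 to 13.1 FPKM in controls and at 11.5 to 14.4 FPKM in *Usp39*-HKO livers, above both other receptors in each liver. It was not called (log2 fold change −0.16, adjusted p = 0.384, and 0.08 with library totals).

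*Bax* encodes the protein that opens the outer mitochondrial membrane. It measured 7.12, 11.9, 7.46 and 9.32 FPKM in controls and 20.2, 14.9, 26.9 and 20.2 FPKM in *Usp39*-HKO livers. The lowest *Usp39*-HKO liver, mouse 2, was still above the highest control (log2 fold change 0.96, SE 0.21, adjusted p = 0.00776). The gene model Gm45808, which shares 56.6% of a *Bax* transcript, had 0 counts in each liver, and how reads that fall on both were counted is not given in the sources used here. *Pmaip1*, which encodes the BH3 protein Noxa, measured 0.997, 0.517, 0.554 and 0.808 FPKM in controls and 1.70, 1.72, 1.42 and 3.48 FPKM in *Usp39*-HKO livers. The counts were low (from 13 to 25 per control and from 37 to 90 per *Usp39*-HKO liver), *Usp39*-HKO mouse 4 was the highest, and the log2 fold change was 1.27 (SE 0.31, adjusted p = 0.0142).

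*Bbc3*, which encodes the related BH3 protein Puma, measured 2.56, 2.99, 4.39 and 3.62 FPKM in controls and 4.12, 4.57, 10.2 and 4.57 FPKM in *Usp39*-HKO livers. *Usp39*-HKO mouse 3 was far above the controls, mice 2 and 4 lay just above the highest control and mouse 1 lay within the control range. The log2 fold change of 0.56 (SE 0.30, adjusted p = 0.211) was 0.14 without *Usp39*-HKO mouse 3. *Apaf1*, the scaffold on which caspase-9 is activated, measured 1.29, 1.37, 1.28 and 1.19 FPKM in controls and 2.67, 2.12, 2.30 and 3.16 FPKM in *Usp39*-HKO livers. These groups did not overlap (log2 fold change 0.76, SE 0.13, adjusted p = 0.00333). *Aen*, a nuclease gene, measured 2.10, 4.21, 2.91 and 3.51 FPKM in controls and 9.58, 7.29, 13.1 and 7.22 FPKM in *Usp39*-HKO livers. Here too each *Usp39*-HKO liver was above each control (log2 fold change 1.32, SE 0.24, adjusted p = 0.00401).

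The remaining 4 apoptosis genes were not called and had log2 fold changes between −0.18 and 0.31, of which those of *Perp*, *Ei24* and *Pidd1* (−0.11, −0.05 and −0.18) were above 0 with library totals (0.12, 0.17 and 0.06). *Trp53inp1* was called higher with library totals (log2 fold change 0.54, adjusted p = 0.0295). They are *Perp*, a membrane protein gene with 83.4 ± 4.80 FPKM in controls and 90.7 ± 5.13 FPKM in *Usp39*-HKO livers (mean ± SD, n = 4), *Ei24*, an endoplasmic reticulum protein gene with 86.4 ± 6.95 and 97.4 ± 12.9 FPKM, *Trp53inp1*, a p53-binding cofactor with 44.5 ± 7.14 and 64.8 ± 13.6 FPKM, and *Pidd1*, the core of a caspase-2 platform, with 0.64 ± 0.237 and 0.668 ± 0.141 FPKM. The apoptosis genes with the highest FPKM in control livers, *Ei24*, *Perp* and *Trp53inp1*, were among those that did not pass the test. *Ei24* shares 68.6% of a transcript with the antisense model Gm26787, which had 0 to 4 counts per liver. The study reports altered splicing of *Trp53inp1* in *Usp39*-HKO livers, which counts summed over the whole gene do not resolve.

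Of the 5 DNA repair genes 1 rose, a count too small to set against the 10.9% of all genes. *Polk*, which encodes a polymerase that copies across damaged bases, was at 1.55, 1.09, 2.01 and 1.57 FPKM in controls and at 2.39, 3.16, 2.87 and 2.85 FPKM in *Usp39*-HKO livers. The groups did not overlap, and the log2 fold change was 0.62 (SE 0.18, adjusted p = 0.0292). That call was lost with an adjusted p of 0.0663 without control mouse 1, 0.0737 without control mouse 4, 0.069 without *Usp39*-HKO mouse 2 and 0.0659 without *Usp39*-HKO mouse 3. The damage recognition genes *Xpc* and *Ddb2* and the p53-induced ribonucleotide reductase subunit gene *Rrm2b* had log2 fold changes of −0.26, −0.01 and 0.24, with adjusted p of 0.141, 0.974 and 0.372, and that of *Ddb2* was 0.23 with library totals. Exons of *Acp2* cover 23.83% of the exon bases of *Ddb2* on the opposite strand, and *Acp2* had 623 to 785 counts per liver against 47 to 75 for *Ddb2*, so that the *Ddb2* values are uncertain. *Rrm2b* shares sequence with Gm8616, which had 0 or 1 count per liver.

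Of the 7 genes of metabolism 1 rose (14.3%), near the 10.9% of all genes. *Gdf15*, a secreted stress signal that reduces food intake, was at 6.12, 16.8, 8.36 and 7.05 FPKM in controls and at 26.5, 31.3, 102 and 43.4 FPKM in *Usp39*-HKO livers. Control mouse 2 and *Usp39*-HKO mouse 3 were the highest of their groups, and the groups did not overlap (log2 fold change 2.17, SE 0.44, adjusted p = 0.00586). *Ephx1*, an epoxide hydrolase gene and the most abundant member, was at 268, 247, 168 and 194 FPKM in controls and at 280, 334, 503 and 321 FPKM in *Usp39*-HKO livers. Its FPKM did not overlap, but the log2 fold change of 0.48 (SE 0.21, adjusted p = 0.117) did not pass the test and was 0.26 without *Usp39*-HKO mouse 3. It passed where no factors were used, with an adjusted p of 0.0184 with library totals and 0.0369 in limma on log2(FPKM + 1).

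The sestrins restrain the growth kinase complex mTORC1 when nutrients or redox balance fail, and no sestrin gene was called with TMM factors, the filter on low values and all mice. *Sesn3* was at 4.26, 3.20, 5.73 and 4.24 FPKM in controls and at 2.49, 4.28, 3.91 and 4.38 FPKM in *Usp39*-HKO livers. These values overlapped widely (log2 fold change −0.46, SE 0.18, adjusted p = 0.10). The adjusted p was 0.0371 without control mouse 2 and 0.0304 without the filter, and the log2 fold change was −0.29 without control mouse 3, −0.30 without *Usp39*-HKO mouse 1, −0.21 with library totals and −0.17 in limma. *Sesn1*, *Sesn2*, *Tigar*, which encodes a phosphatase that slows glycolysis, and *Dcxr*, a sugar reductase gene, had log2 fold changes of 0.18, 0.32, −0.10 and −0.39, with adjusted p of 0.35, 0.364, 0.724 and 0.185, and that of *Tigar* was 0.13 with library totals. *Sesn1* was called higher with library totals (log2 fold change 0.42, adjusted p = 0.0427). *Dcxr* was called lower without *Usp39*-HKO mouse 1 (log2 fold change −0.60, adjusted p = 0.0139).

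**Figure D3:**
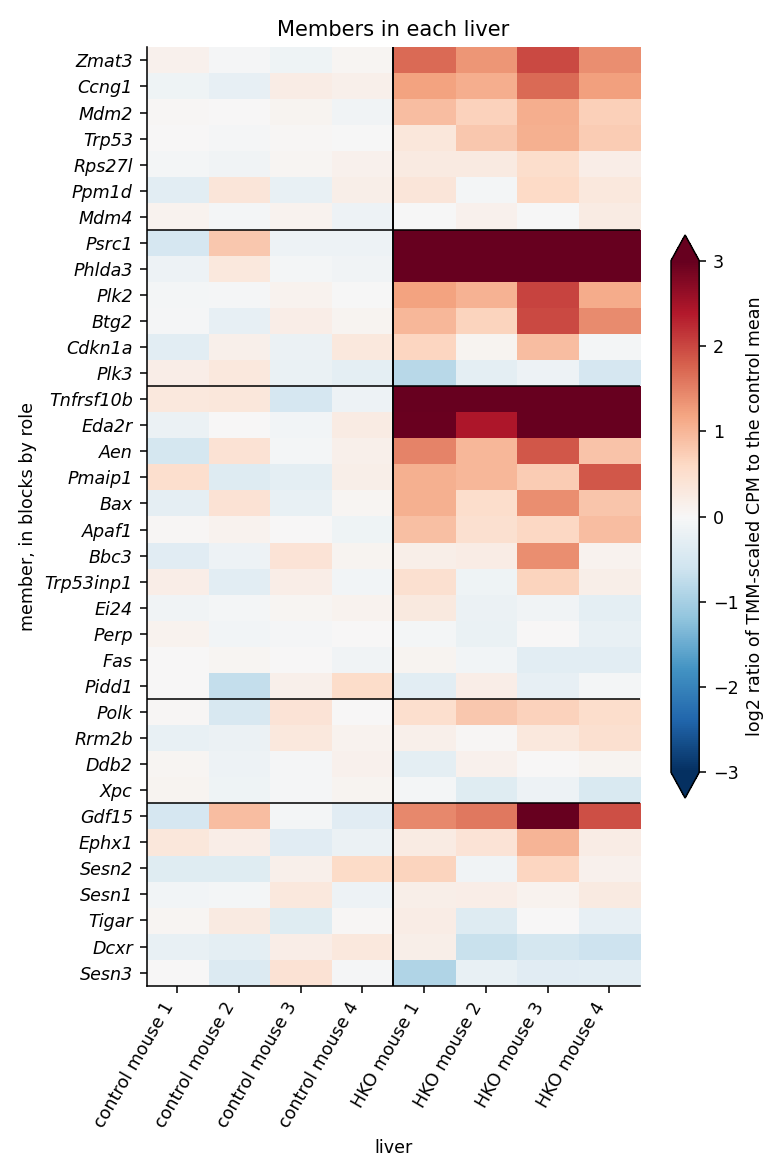
Log2 ratio of TMM-scaled CPM to the mean of the 4 controls (colour, limited to between −3 and 3) for each of the 36 tested members (from top to bottom, in blocks by role) in each of the 8 livers (from left to right). *Psrc1*, *Phlda3* and *Tnfrsf10b* are darkest in all 4 *Usp39*-HKO livers, and most of the DNA repair and metabolism blocks are pale.

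The 4 *Usp39*-HKO livers differed among themselves in the members, a spread that was described and not tested. In FPKM, 13 of the 17 called members were highest in *Usp39*-HKO mouse 3, 3 in mouse 4 (*Pmaip1*, *Eda2r* and *Apaf1*), 1 in mouse 2 (*Polk*) and 0 in mouse 1. The lowest of the 4 *Usp39*-HKO livers in FPKM was mouse 2 for 9 of them and mouse 1 for 6. With TMM scaling, the log2 ratio to the control mean of *Eda2r* was highest in mouse 3 (3.135, against 2.999 in mouse 4). That of *Rps27l* was then lowest in mouse 4 (0.203). Over the 36 members tested, the median log2 ratio to the control mean was 0.42, 0.25, 0.68 and 0.29 in *Usp39*-HKO mice 1 to 4, and between −0.05 and 0.05 in controls. For all genes tested the same median lay between −0.02 and 0.02 in each liver. Pairs of related genes were also compared within each liver, as a description chosen after the values were seen and not tested. The FPKM of *Plk2* was 0.0652 to 0.104 times that of *Plk3* in controls and 0.213 to 0.378 times in *Usp39*-HKO livers. For *Tnfrsf10b* over *Fas* the ratio lay between 0.00688 and 0.0144 in controls and between 0.131 and 0.239 in *Usp39*-HKO mice. For *Phlda3* over *Cdkn1a* it lay between 0.0221 and 0.0342 in controls and between 0.244 and 0.378 in *Usp39*-HKO mice. *Tnfrsf10b* passed the filter on low values only through the *Usp39*-HKO mice, so that its ratio to *Fas* had to differ.

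Further targets of p53 outside the members were read against the same background. Of 36 such genes, 31 were tested, 7 rose (*Lif*, *Gadd45a*, *Thbs1*, *Pvt1*, *Dram1*, *Casp1* and *Sulf2*) and 2 fell (*Fdxr* and *Gls2*), where 10.9% and 11.6% of all genes did, and the median log2 fold change was 0.15. *Lif* and *Pvt1* passed the filter on low values only through the *Usp39*-HKO mice, and without them 5 of 34 rose, with a median of 0.13. With library totals in place of TMM factors 13 were higher and 0 lower, where 24.5% and 4.9% of all genes were, and limma gave 12 and 0, where 21% and 4.32% of all genes were. The count of 9 called was 6 without control mouse 3, and 0 were lower without control mouse 3, control mouse 4 or *Usp39*-HKO mouse 4. *Gadd45a*, a gene of growth arrest and DNA damage, was at 0.556, 0.572, 0.594 and 0.707 FPKM in controls and at 1.52, 2.002, 5.76 and 5.80 FPKM in *Usp39*-HKO livers (log2 fold change 2.36, SE 0.44, adjusted p = 0.00422). *Thbs1*, which encodes the matrix protein thrombospondin, was at 0.522 to 1.23 FPKM in controls and at 2.27, 2.75, 2.74 and 8.72 FPKM in *Usp39*-HKO livers, so that mouse 4 stood apart (log2 fold change 1.94, SE 0.42, adjusted p = 0.00831). The cytokine gene *Lif* had 1 count in the 4 controls together and 133 in the 4 *Usp39*-HKO livers, a ratio of 130 per total count with an exact 95% interval from 23.0 to 5180, which covers counting error only (adjusted p = 0.000367).

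The 2 targets that fell each encode a mitochondrial enzyme, and mitochondrial genes were not tested as a group. *Fdxr*, ferredoxin reductase, was at 5.36, 8.23, 7.43 and 9.10 FPKM in controls and at 7.004, 4.999, 6.01 and 4.51 FPKM in *Usp39*-HKO livers (log2 fold change −0.64, SE 0.20, adjusted p = 0.0395). *Gls2*, the liver glutaminase, was at 84.5, 74.98, 96.9 and 101 FPKM in controls and at 81.0, 78.9, 68.1 and 60.2 FPKM in *Usp39*-HKO livers (log2 fold change −0.53, SE 0.15, adjusted p = 0.0272). In FPKM the groups overlapped in both genes. In TMM-scaled CPM they overlapped for *Fdxr*, while for *Gls2* each *Usp39*-HKO liver lay below each control. With library totals in place of TMM factors neither gene was called (adjusted p = 0.108 and 0.102). *Fdxr* was also lost without control mouse 2, 3 or 4 (adjusted p 0.0782, 0.086 and 0.118) and *Usp39*-HKO mouse 2, 3 or 4 (0.0855, 0.0631 and 0.0997). *Gls2* was lost without control mouse 1, 3 or 4 (adjusted p 0.053, 0.0844 and 0.0819) and *Usp39*-HKO mouse 3 or 4 (0.0664 and 0.0602).

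Genes that act on p53 had a median near that of all genes. Of 30 kinases, ligases, acetylases and cofactors, 26 were tested, 1 rose and 3 fell, where 10.9% and 11.6% of all genes did, so that the share that fell was near that of all genes. The median log2 fold change was 0.00. With library totals in place of TMM factors 6 were higher and 1 lower, near the 24.5% and 4.9% of all genes. *Atm*, the kinase that answers to DNA breaks, was at 2.40, 1.87, 2.33 and 2.19 FPKM in controls and at 1.27, 1.71, 1.16 and 1.96 FPKM in *Usp39*-HKO livers (log2 fold change −0.77, SE 0.15, adjusted p = 0.00526). In FPKM, *Usp39*-HKO mouse 4 lay within the control range, but in TMM-scaled CPM each *Usp39*-HKO liver lay below each control. Limma on log2(FPKM + 1) gave *Atm* an adjusted p of 0.0629. *Prkdc*, the kinase of DNA end joining, was at 1.9, 1.34, 2.14 and 1.65 FPKM in controls and at 1.12, 1.53, 1.09 and 1.73 FPKM in *Usp39*-HKO livers (log2 fold change −0.60, SE 0.17, adjusted p = 0.0264). Its adjusted p was 0.168 with library totals, 0.0722 and 0.0896 without control mouse 1 and 3, and 0.0578 and 0.0716 without *Usp39*-HKO mouse 1 and 3. The acetylase gene *Kat2b* was at 29.5, 27.3, 30.2 and 30.2 FPKM in controls and at 21.8, 31.6, 26.6 and 30.4 FPKM in *Usp39*-HKO livers (log2 fold change −0.33, SE 0.11, adjusted p = 0.049). *Kat2b* overlapped between the groups in FPKM, while in TMM-scaled CPM it was lower in each *Usp39*-HKO liver than in each control. Its adjusted p was 0.63 with library totals, 0.107, 0.129 and 0.109 without control mouse 1, 3 and 4, and 0.122, 0.101 and 0.0888 without *Usp39*-HKO mouse 1, 3 and 4. The checkpoint kinase gene *Chek2* was at 0.288 to 0.544 FPKM in controls and at 0.514, 1.41, 0.873 and 1.62 FPKM in *Usp39*-HKO livers (log2 fold change 1.15, SE 0.36, adjusted p = 0.0413). Its adjusted p was 0.0543, 0.0864, 0.07 and 0.119 without control mouse 1, 2, 3 and 4, and 0.0946, 0.0545 and 0.119 without *Usp39*-HKO mouse 2, 3 and 4. The number of regulators called, 4 with all mice, was 1 without control mouse 1, control mouse 3 or *Usp39*-HKO mouse 3, and 2 without control mouse 4 or *Usp39*-HKO mouse 4. The ribosomal protein genes *Rpl5*, *Rpl11* and *Rpl23*, whose proteins can bind and block Mdm2, had log2 fold changes of −0.01, 0.13 and 0.03 and were not called, and that of *Rpl5* was 0.23 with library totals. *Cdkn2a*, whose Arf product also blocks Mdm2, had 4 counts in each group and was not tested.

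The cell cycle genes that p53 represses through p21 and the DREAM complex were higher. Of 20 such genes 19 could be tested and all 19 rose, also with library totals, with a median log2 fold change of 1.96, where 10.9% of all genes tested were called higher. *Cdc25c*, *Kif23* and *Cenpe* passed the filter only through the *Usp39*-HKO mice, and without them 16 of 17 rose, *Melk* being the gene not tested. Others among the 16 also needed *Usp39*-HKO mice to pass, as fewer than 4 controls reached 0.5 FPKM. Only 1 control did so for *Aurkb*, *Foxm1* and *Prc1*, 2 for *Ccnb1* and *Mcm5*, and 3 for *Plk1*, *Birc5* and *Bub1b*. Cyclin B1 (*Ccnb1*), which drives entry into mitosis, was at 0.258, 0.813, 0.469 and 0.683 FPKM in controls and at 8.96, 5.68, 4.77 and 8.23 FPKM in *Usp39*-HKO livers (log2 fold change 3.38, SE 0.30, adjusted p = 0.000184). *Cdc20*, an activator of the ligase that ends mitosis, was at 0.641, 2.97, 0.935 and 1.23 FPKM in controls and at 17.1, 10.2, 12.7 and 15.8 FPKM in *Usp39*-HKO livers (log2 fold change 3.02, SE 0.36, adjusted p = 0.000625). *Cdc25c*, the phosphatase gene that activates the kinase partner of cyclin B, had 17 counts in the controls together and 132 in *Usp39*-HKO livers, a ratio of 7.6 per total count with an exact 95% interval from 4.57 to 13.4 (log2 fold change 2.67, SE 0.37, adjusted p = 0.00117). The median log2 ratio of this list to the control mean was 2.17, 1.75, 1.37 and 2.23 in *Usp39*-HKO mice 1 to 4. In control mice 1 to 4 it was −0.26, 0.62, −0.33 and −0.09, so that control mouse 2 stood above the other controls. *Usp39*-HKO mouse 3, the highest in FPKM in 13 of the 17 called p53 members, was the lowest *Usp39*-HKO mouse here.

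**Figure D4:**
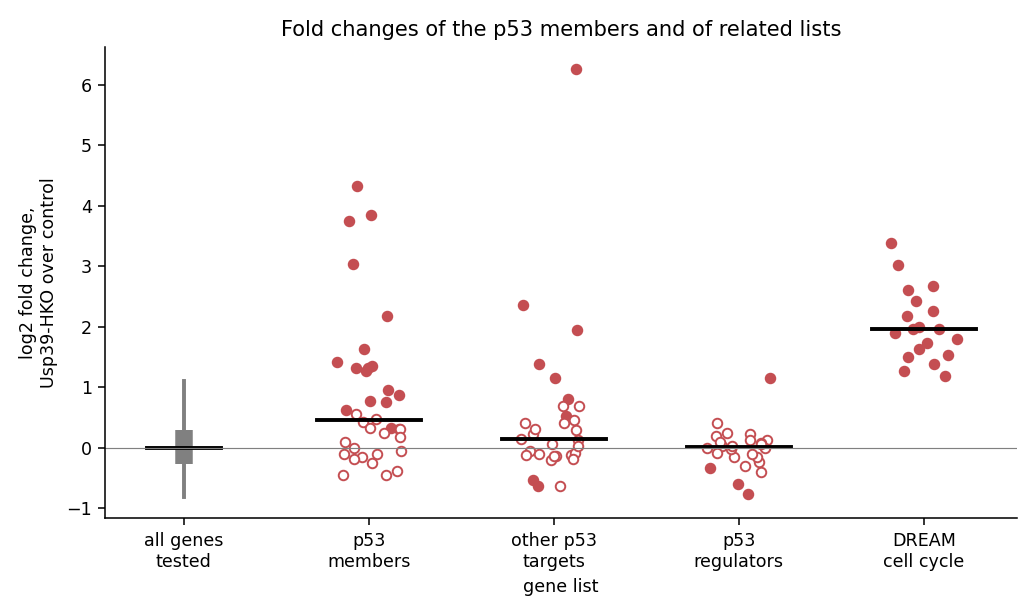
Log2 fold change between genotypes, positive where *Usp39*-HKO livers are higher (y axis), for the tested genes of 4 lists, with filled points at an adjusted p under 0.05 and lines at medians, beside all genes tested (thick bar, middle 50%; thin bar, middle 90%). The medians are 0.45 for the p53 members, 0.15 for other p53 targets, 0.00 for regulators of p53 and 1.96 for DREAM genes, and the highest point, *Lif*, rests on 1 count in the controls.

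**Figure D5:**
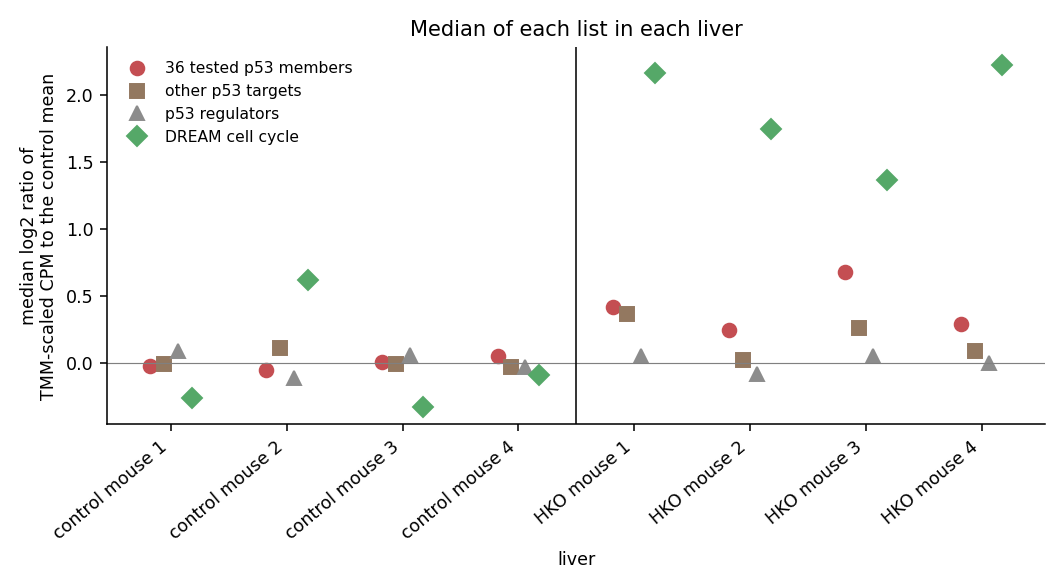
Median log2 ratio of TMM-scaled CPM to the control mean (y axis) for the tested genes of each list in each liver (x axis). The p53 members reach 0.68 in *Usp39*-HKO mouse 3, where the DREAM genes have the lowest of their 4 *Usp39*-HKO medians, 1.37.

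Several markers of other liver cells were higher in the same livers. Of the 6 bile duct markers 5 rose, where 10.9% of all genes did, and their summed FPKM was 28.7, 29.1, 26.7 and 28.1 in controls and 65.3, 141, 151 and 289 in *Usp39*-HKO mice, mostly from *Spp1* (59.8, 128, 136 and 263 FPKM in the latter). Of the 7 stellate cell and fibroblast markers 6 rose, with sums of 73.0, 67.1, 68.2 and 62.9 FPKM in controls and 106, 203, 161 and 231 FPKM in *Usp39*-HKO livers, led by *Dcn*. Of the 6 macrophage markers 4 rose, with sums of 259 to 337 FPKM in controls and 444, 491, 509 and 680 FPKM in *Usp39*-HKO livers, led by *Cd5l*, and 2 were called without control mouse 3. These 3 sums were highest in *Usp39*-HKO mouse 4, not in mouse 3. Of 7 lymphocyte markers 1 rose (*Ptprc*), a share of 14.3% that is near the 10.9% of all genes. Their sums were 5.95 to 7.26 FPKM in controls and 7.52 to 10.2 FPKM in *Usp39*-HKO livers, led by *Nkg7*. *Ptprc* was not called without control mouse 2, 3 or 4 or *Usp39*-HKO mouse 2 or 4. No marker of these lists was at 0 in every liver. The part of these cell types in the levels of the p53 members was not tested.

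Other markers overlapped between the groups in their sums. The 8 hepatocyte markers, led by *Alb*, summed to 15030 to 16950 FPKM in controls and to 17820, 13770, 16550 and 13960 FPKM in *Usp39*-HKO livers, and 3 of them fell (*Apob*, *Serpina1c* and *Cps1*), where 11.6% of all genes did. The number of hepatocyte markers called lower was 0 without control mouse 1 or 3, 1 without control mouse 4 or *Usp39*-HKO mouse 3, and 1 with library totals. It was 0 in limma, 2 without *Usp39*-HKO mouse 2 or 4, and 4 in DESeq2 or without *Usp39*-HKO mouse 1. The 6 endothelial markers, led by *Clec4g*, summed to 77.2 to 89.3 FPKM in controls and 87.1 to 101 FPKM in *Usp39*-HKO livers, and 1 fell (*Stab2*), near the 11.6% of all genes, while 0 were lower and 3 higher with library totals. Without control mouse 1, 3 or 4 or *Usp39*-HKO mouse 2, 3 or 4, or with median-ratio factors, 0 endothelial markers were called. Without control mouse 2, 1 was higher and 0 lower, and in DESeq2 1 was higher and 1 lower. The 6 neutrophil markers, led by *S100a9*, summed to 21.8 to 66.9 FPKM in controls and 12.1 to 85.2 FPKM in *Usp39*-HKO livers, and 0 of the 4 tested were called in edgeR, 0 at an unadjusted p under 0.05, 0 in DESeq2 and 0 in limma. All 4 erythroid markers that could be tested fell, where 11.6% of all genes did, and all 4 were also called lower with library totals, in DESeq2 and in limma. The 6 summed to 322 to 683 FPKM in controls and 144 to 325 FPKM in *Usp39*-HKO livers, led by *Hbb-bs*. These sums overlapped only because *Usp39*-HKO mouse 3 (325 FPKM) lay just above control mouse 1 (322 FPKM).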

How the data were processed

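Liver RNA of 8 mice was sequenced on an Illumina NovaSeq. Reads were mapped by the authors to mm10 (HISAT2), and featureCounts gave the deposited raw counts per gene; the submitters' processing notes also name Trim Galore 0.6.1, FastQC 0.11.9 and Picard. The annotation release, strand setting and treatment of multi-mapping reads are not given in the sources used here. The deposited FPKM follow from counts, deposited gene length and each mouse's total. The authors' own DESeq2 comparison (mean, fold change, its error, statistic, p-values and direction) was not used. Of 55699 entries, 314 repeat an identifier and were read once.

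For testing, 0.5 FPKM was required in 4 or more of the 8 mice, which left 14340 genes for edgeR 4.0.16 (quasi-likelihood, TMM factors, genotype alone); the code was tested on simulated data. Each SE is the absolute log2 fold change over the square root of F. Alternatives were median-ratio factors, library totals without TMM, no filter, a mean of 5 FPKM, DESeq2 1.42.0, limma 3.58.1 on log2(FPKM + 1), the study's cutoff (unadjusted p under 0.05, absolute log2 fold change over 0.5) and leaving out each mouse. Mice of a group differed by more than counting error, and intervals cover counting error only. Coordinates and exon overlap are from GENCODE vM21, shared sequence (identity of 97% or more) from BLAST+ 2.17.0+ and promoters from RefSeq.

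All 37 members are named. The rule for values in each mouse took called members, the 4 largest changes among the others and *Mdm4*, and the 3 largest called rises and falls of each further list. *Cdkn1a* was added after its values were seen, and the other members that were not called are given by ranges, means or fold changes. Members and lists were chosen with earlier results of these data known. *Kitlg* of the further targets was not analysed here.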

Additional observations from a re-analysis of the deposited data

Results flagged for a closer look

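Within each group of 4 mice, the gap between the highest or lowest FPKM and its nearest neighbour was compared with the range of the group, for the 36 tested members and *Usp39*. Of the 74 groups checked, 7 held a liver that stood apart, and chance alone gives about 1 in 20. *Usp39*-HKO mouse 3 stood above its group in *Plk2* (22.0 FPKM, next 13.2), *Phlda3* (30.6 FPKM, next 16.0) and *Bbc3* (10.2 FPKM, next 4.57). *Usp39*-HKO mouse 4 did so in *Pmaip1* (3.48 FPKM, next 1.72) and *Usp39*-HKO mouse 1 in *Ei24* (117 FPKM, next 92.4). Among controls, mouse 2 stood above the others in *Phlda3* (1.42 FPKM, next 1.05) and mouse 3 in *Sesn1* (5.58 FPKM, next 4.31). Genes of a pathway are not independent of each other, so that several of them in 1 mouse are not separate observations.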

How the results depend on the processing

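Of the 17 called members, 15 were called under every alternative that tested them, and *Rps27l* and *Polk* were not. None of these 17 changed direction. In limma on log2(FPKM + 1), the log2 fold change was 2.13 for *Psrc1*, 1.53 for *Tnfrsf10b*, 1.42 for *Eda2r* and 0.81 for *Pmaip1*. Each of these was well below its edgeR value. Of the members not called, *Perp*, *Fas*, *Pidd1*, *Ei24*, *Ddb2* and *Tigar* had fold changes of the other sign with library totals and in limma. The number of members called was 17 with median-ratio factors and in DESeq2, 18 in limma and without a filter (16 higher and 2 lower), 21 with library totals, 16 at the study's cutoff and 15 to 18 with 1 mouse left out. With a mean FPKM of at least 5, fewer genes were tested, and 10 of 22 members, 2 of 16 other targets, 1 of 14 regulators and 2 of 2 DREAM genes were called. The 1 regulator called there was higher and was not among those called with the filter of 0.5 FPKM. *Fdxr* passed the stricter filter but was not called there (adjusted p = 0.0646 in edgeR). With library totals, 83.3% of all calls were higher, against 48.4% with TMM factors, the median gene moved to 0.23, the member median to 0.68 and the number of regulators called to 7. With 1 mouse left out, the member median was 0.24 to 0.57, other targets called were 6 to 11, regulators 1 to 4 and DREAM genes 18 to 19. *Usp39* was −0.18 with library totals and −0.16 in limma and not called in either, fell short of the study's cutoff at −0.41, and was −0.45 to −0.35 with 1 mouse left out. The cause of these changes was not tested beyond what the alternatives change by construction. Depth limits members with few counts, such as *Pmaip1* and *Pidd1*, and *Zfp365*, which was not tested.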

Other observations

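A few further p53 targets lay below the filter on low values and are given as counts, without a test, and were chosen after their values were seen. *Rprm* had 0 counts in each liver. The long noncoding RNA *Trp53cor1*, which lies near *Cdkn1a*, had 9 counts in the 4 controls together and 52 in the 4 *Usp39*-HKO livers, the kinase gene *Ak1* had 13 and 55, and *Cpt1c*, a carnitine palmitoyltransferase gene, had 15 and 71. Among the regulators, *Chek1* had 18 and 65 counts, while *Trp63* had 5 and 3 and *Trp73* had 0 and 3, so that neither relative of p53 could be compared at this depth.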
